A study of Mus musculus with 16 samples.

Results

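The 35 genes described here drive the cell cycle and copy the DNA, and they were taken by gene symbol from the deposited tables. All 35 were among the 17410 genes of the tables. They fall into 17 genes of the G1/S transition and DNA replication and 18 genes of G2 and mitosis (G2/M). RNA of 16 mouse livers was sequenced, 4 livers in each of 4 groups, to compare loss and gain of ChREBPα, which is made from the gene Mlxipl and turns on genes of sugar and fat metabolism, in livers of mice on steatohepatitis diets. The labels number the livers 9 to 24 and do not state outright that each came from a separate animal, so the p-values rest on a spread between samples that may be technical.

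In the deletion experiment all mice carried 2 floxed Chrebpα alleles, received an adeno-associated virus (AAV) and ate a NASH diet for 12 weeks, with 40% of its calories from fat, 20% from fructose, and 2% cholesterol. The group WT_NASH (livers 17 to 20) had received AAV-TBG-GFP and the group LKO_NASH (livers 21 to 24) AAV-TBG-Cre. TBG is a hepatocyte promoter, so Cre was directed to hepatocytes and the other liver cells kept the floxed gene. In the overexpression experiment wildtype mice, 2 months old, ate the HFLMCD diet for 3 weeks, which lacks choline, takes 45% of its calories from fat and has 0.1% methionine added. They had an adenovirus for GFP (Ad_GFP_HFLMCD, livers 9 to 12) or for Chrebpα (Ad_Chrebpa_HFLMCD, livers 13 to 16), given 1 week before dissection. Values per liver below always follow the order of these liver numbers.

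A cell enters the cycle when D-type cyclins and then cyclin E with its kinase release E2F transcription factors from the retinoblastoma proteins. The E2F factors raise the genes of the replication machinery: the MCM helicase that opens the DNA, the sliding clamp, the ligase, and the enzymes that supply nucleotides. Later the genes of mitosis follow, largely through the MuvB complex with B-MYB and FOXM1, which acts at a promoter element called the cell cycle genes homology region (CHR). Most hepatocytes of an adult liver rest outside the cycle and return to it after injury or loss of tissue, and the macrophages and other non-parenchymal cells of a damaged liver can divide as well.

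Promoters were looked up for all members in a RefSeq table of build GRCm38.p6, which gives 250 bases before and 50 bases after each gene start. It held 28 of the 35 members; Ccnd1, Ccne2, Mcm4, Ccna2, Kif20a, Aurkb and Stmn1 had no entry. These 28 genes had 31 windows, 17 for G1/S and replication genes and 14 for G2/M genes. The CHR was searched as TTTGAA or TTCGAA, the CCAAT box as CCAAT, and the E2F site as TTTCCCGC, TTTCGCGC, TTTGCCGC or TTTGGCGC, all on both strands. The 6 promoters below are shown because they carry the elements that set the G2/M windows and the replication windows apart by count. Each line runs 5′ to 3′ on the gene's strand from base -200 to base -1 before the start, except Cdk1, which ends at base -27, and capitals mark the matches on either strand. Mki67 (chr7:135716380-135716579, minus strand), Top2a (chr11:99024190-99024389, minus strand), Ccnb2 (chr9:70421555-70421754, minus strand) and Cdk1 (chr10:69352939-69353112, minus strand) are G2/M genes. Mcm5 (chr8:75109309-75109508, plus strand) and Mcm6 (chr1:128359706-128359905, minus strand) are helicase genes, and in each of them a pair of overlapping E2F matches forms 1 run of capitals.
Mki67: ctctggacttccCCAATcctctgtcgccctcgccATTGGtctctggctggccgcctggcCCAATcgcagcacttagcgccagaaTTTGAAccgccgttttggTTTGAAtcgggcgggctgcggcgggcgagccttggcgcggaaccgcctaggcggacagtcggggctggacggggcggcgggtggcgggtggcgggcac
Top2a: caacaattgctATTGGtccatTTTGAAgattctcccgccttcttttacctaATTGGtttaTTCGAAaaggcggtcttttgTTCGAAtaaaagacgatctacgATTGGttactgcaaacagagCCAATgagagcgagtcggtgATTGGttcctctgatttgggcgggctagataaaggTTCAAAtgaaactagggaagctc
Ccnb2: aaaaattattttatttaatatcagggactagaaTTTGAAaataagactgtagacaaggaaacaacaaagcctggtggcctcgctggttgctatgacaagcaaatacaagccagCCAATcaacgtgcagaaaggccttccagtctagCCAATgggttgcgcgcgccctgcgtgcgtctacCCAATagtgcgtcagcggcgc
Cdk1: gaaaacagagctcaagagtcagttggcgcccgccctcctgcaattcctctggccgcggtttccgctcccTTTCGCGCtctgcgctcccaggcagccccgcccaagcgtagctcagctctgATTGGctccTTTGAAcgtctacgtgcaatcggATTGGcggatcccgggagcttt
Mcm5: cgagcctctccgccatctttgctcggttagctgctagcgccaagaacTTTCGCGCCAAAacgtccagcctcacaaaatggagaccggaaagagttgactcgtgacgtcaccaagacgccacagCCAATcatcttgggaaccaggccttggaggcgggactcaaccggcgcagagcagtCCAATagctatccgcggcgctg
Mcm6: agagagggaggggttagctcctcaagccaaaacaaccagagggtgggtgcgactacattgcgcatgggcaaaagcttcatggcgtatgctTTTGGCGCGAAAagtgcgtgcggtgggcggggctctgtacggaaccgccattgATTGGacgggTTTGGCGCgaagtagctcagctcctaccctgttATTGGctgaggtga

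A CHR was present in 12 of the 14 G2/M windows (85.7%) and in 2 of the 17 G1/S and replication windows (11.8%), beside 19.2% of all 32851 promoters of the table. All 12 of those G2/M windows also held a CCAAT box, a pair found in 7.5% of all promoters. A CCAAT box, with or without a CHR, was in 92.9% of the G2/M windows, 58.8% of the G1/S and replication windows and 37.4% of all promoters. The E2F letters were in 6 of the 17 G1/S and replication windows (35.3%) and in 1 of the 14 G2/M windows (7.1%), that of Cdk1, beside 2.3% of all promoters. Ccnb1 and Birc5 were the G2/M windows with no CHR letters, and Mcm2 and 1 of the 2 Mcm7 windows were the G1/S and replication windows that had them. These matches describe letters in a window and show no binding.

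**Figure D1:**
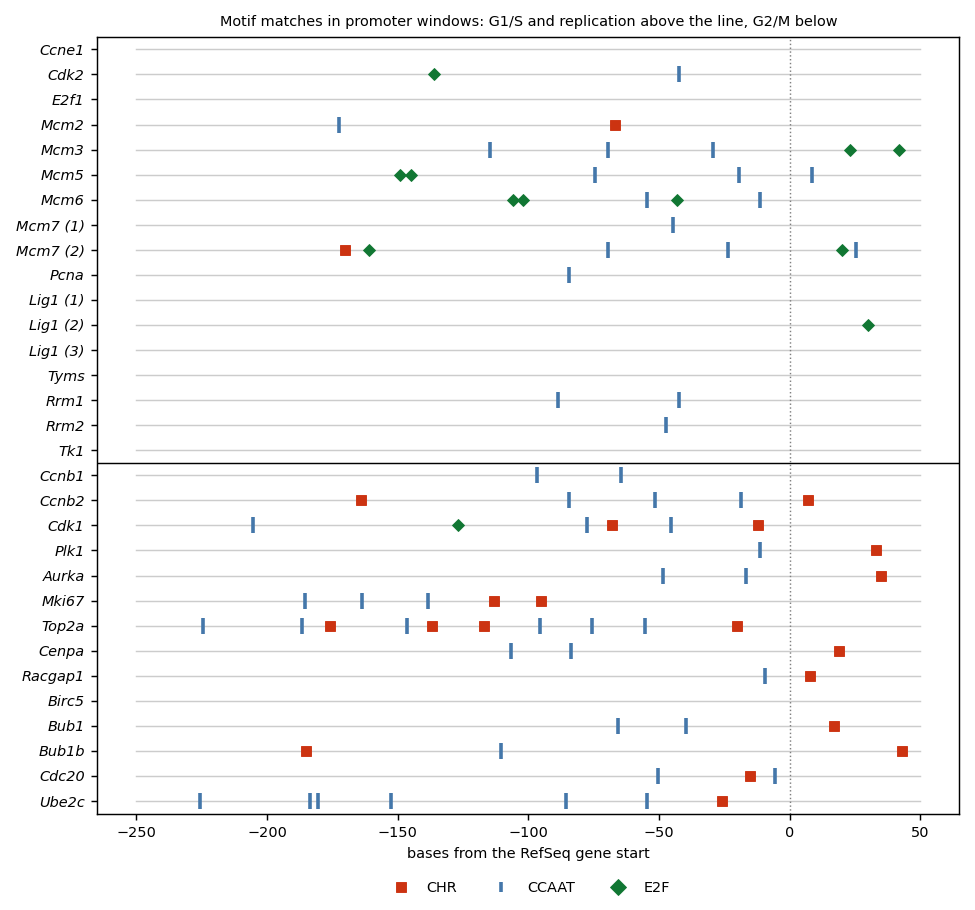
Matches to the CHR (squares), the CCAAT box (bars) and the E2F site (diamonds) in the 31 promoter windows, by distance in bases from the RefSeq gene start. CHR matches occupy 12 of the 14 G2/M windows below the line and 2 of the 17 windows above it, where 6 windows hold E2F matches.

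The libraries held 21254937 to 40327264 expected counts (raw estimates of fragments per gene), with the widest range in WT_NASH. In the deletion experiment liver 21 stood apart from the other LKO_NASH livers: its score on the leading principal component (42.6% of the variance) was -26.85, within the range of WT_NASH, and livers 22 to 24 scored 28.75 to 35.37. Hepatocyte markers summed to 44800 to 75100 FPKM in every liver, as the tissue label says. The gene-level FPKM of Mlxipl did not check the labels: it was 66.1 ± 15.1 (SD, n = 4) in WT_NASH and 76.4 ± 22.3 in LKO_NASH, and 43.7 ± 4.61 in Ad_GFP_HFLMCD and 46.1 ± 1.41 in Ad_Chrebpa_HFLMCD. Neither the deleted exon nor the counting of the vector's transcript is known from the labels, so group names below are those of the labels.

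Levels are given in FPKM (fragments per unit of transcript length and of library size, calculated by the authors), which allows genes to be compared per length. Mean FPKM was higher in both HFLMCD groups than in both NASH groups for 34 of the 35 members, all but Tk1. The same held for 76.2% of 13830 genes, since on this scale most genes were lower in the NASH libraries: the all-gene median difference between the control groups was -0.44 on log2(FPKM + 1) and -0.61 on log2(FPKM + 0.1). Mean FPKM ran in the order Ad_GFP_HFLMCD, Ad_Chrebpa_HFLMCD, LKO_NASH, WT_NASH, from high to low, in 29 of the 35 members: all 18 G2/M genes and 11 of the 17 G1/S and replication genes, beside 42.4% of all genes. Ccnd1, Ccne1, Mcm6, Mcm7 and Rrm2 differed from that order by having WT_NASH above LKO_NASH. Tk1 (thymidine kinase, which salvages thymidine for DNA) had an order of its own, LKO_NASH, Ad_Chrebpa_HFLMCD, WT_NASH, Ad_GFP_HFLMCD. An order of means does not show that neighbours differ, and the tests of neighbouring groups follow below. The median over the 18 G2/M genes of the mean FPKM was 0.164 in WT_NASH, 0.353 in LKO_NASH, 3.29 in Ad_GFP_HFLMCD and 2.3 in Ad_Chrebpa_HFLMCD. Over the 17 G1/S and replication genes it was 2.29, 2.01, 7.7 and 5.5 in the same groups. The most abundant member was Ccnd1 in both HFLMCD groups and Pcna in both NASH groups, where Pcna had mean FPKM of 18.2 ± 1.15 (SD, n = 4) and 21.2 ± 0.584.

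The G2/M genes were near the lower end of what the NASH libraries could measure. Their mean FPKM was below 0.5 in 14 of 18 genes in WT_NASH and in 13 in LKO_NASH, but only in 1, Bub1, in each HFLMCD group. At least 1 liver had fewer than 10 counts for 10 of the 18 genes in WT_NASH and for 5 in LKO_NASH. Bub1 (a kinase of the spindle checkpoint) was the only member with a mean FPKM below 0.5 in all 4 groups: it had 0, 0, 0 and 2 counts in WT_NASH and 10, 2, 2 and 2 in LKO_NASH. Bub1 and Ccnb1 (the main mitotic cyclin) did not pass the filter on low counts in the deletion experiment, which left 33 members for its test. On the chromosome 11 members overlap another coding gene and 5 have named copies elsewhere (Pcna, Tyms, Ccnb1, Ccnb2 and Stmn1), and how the authors' counting split such reads is unknown, so their values are less certain. In such bulk samples fewer dividing cells and less of these RNAs per cell cannot be told apart.

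**Figure D2:**
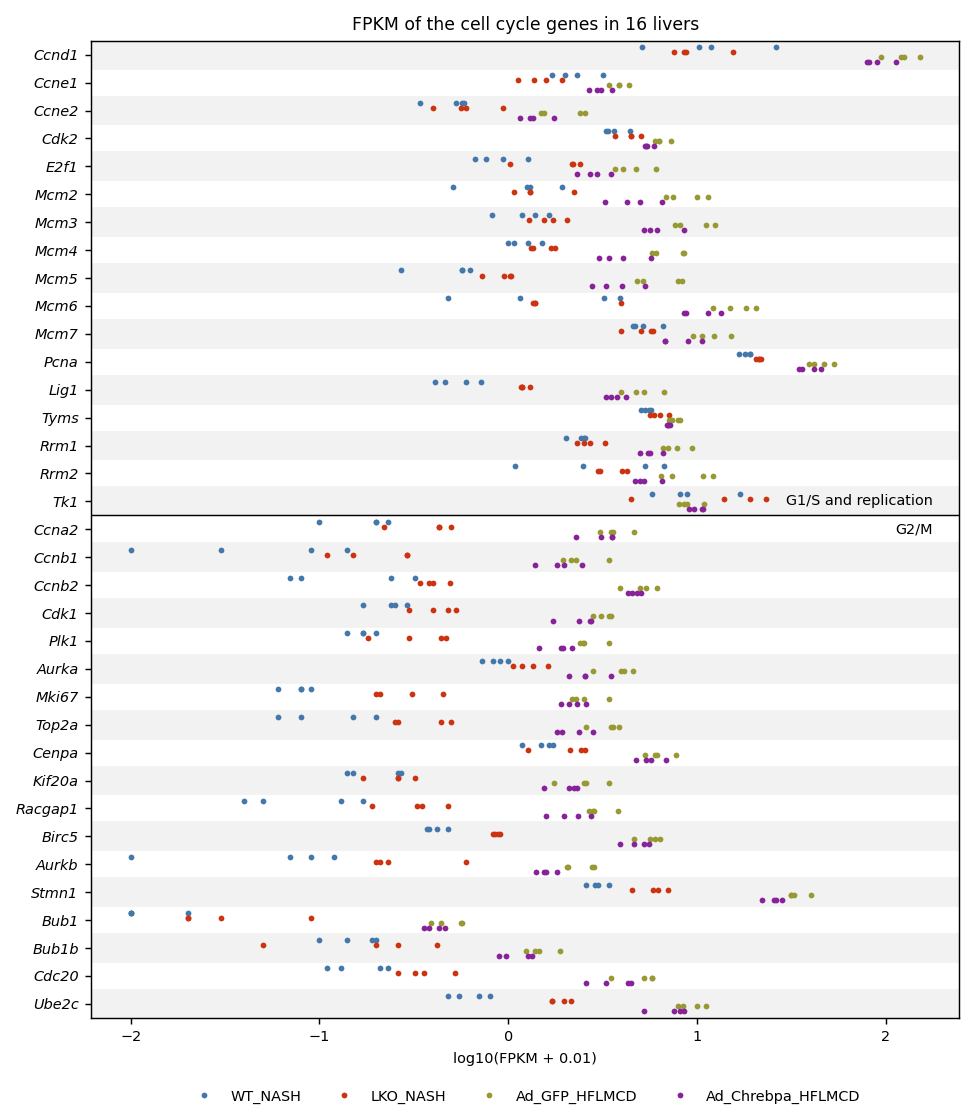
FPKM of the 35 genes in each of the 16 livers, as log10(FPKM + 0.01), with 1 point per liver coloured by group. All 18 G2/M genes (lower panel) are lower in every NASH liver than in every HFLMCD liver, as are 44.4% of all genes on this scale, and Bub1 is the lowest gene in each group.

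The first comparison asks what loss of hepatocyte ChREBPα did under the NASH diet. No member passed the test: 0 of 33 were called higher and 0 lower in LKO_NASH than in WT_NASH, beside 0.0% of all 12784 genes in either direction (edgeR's quasi-likelihood test on the rounded expected counts, Benjamini-Hochberg adjusted p below 0.05). With no filter on low counts, all 18 G2/M genes had a positive log2 fold change, with a median of 0.95 against 0.01 over all genes, of which 51.7% were positive. The G1/S and replication genes had a median of 0.09 in that fit. Of the 33 members that passed the filter, 16 of 16 G2/M genes (median 0.93) and 12 of 17 G1/S and replication genes (median 0.10) were positive. Aurkb passed it with no WT_NASH liver above 9 counts, and Ccnb2, Racgap1 and Cdc20, for example, with WT_NASH livers down to 2, 2 and 4 counts. So counts over the tested members, here and in the rest of this paragraph, describe them and support nothing. Over all genes tested 51.6% were positive and 48.4% negative. Without adjustment, 12 of the 16 G2/M genes and 3 of the 17 G1/S and replication genes had a p below 0.05 in the higher direction, beside 7.68% of all genes, and 1 member, Ccne1, in the lower direction, beside 5.87%. In 14 of the 33 members every LKO_NASH liver had a higher FPKM than every WT_NASH liver (6.93% of all genes did), and in none every LKO_NASH liver was lower (0.673%). FPKM carried a small shift here, with an all-gene median of 0.10 on log2(FPKM + 1) and 0.15 on log2(FPKM + 0.1).

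Other tools differed on the call. DESeq2 called 4 members higher and none lower, beside 0.704% and 0.54% of all genes: Mki67 (adjusted p = 0.00029), Lig1 and Ube2c (both 0.000708) and Stmn1 (0.00207). A fit of edgeR to all 16 livers called the same 4 (0.622% of all genes higher), with adjusted p = 0.0237 for Lig1 and 0.015 for the other 3. Limma-voom called none. Without liver 21 edgeR called 5 members higher (those 4 and E2f1), beside 1.28% of all genes. Without livers 19 and 21 it called 7 higher and 1 lower, beside 4.85% and 7.01%. These 2 livers were those of each group nearest the other group on the leading principal component and were picked with earlier results known. Leaving out liver 21 alone or both livers therefore widens the gap between the groups by construction, and the calls of these 2 fits support nothing.

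Among the G1 cyclins and regulators, all 5 genes had overlapping groups. Ccnd1 (cyclin D1, which carries growth signals into G1) had FPKM of 11.9, 5.12, 10.2 and 26.4 (WT_NASH) against 15.6, 7.53, 8.51 and 8.72 (LKO_NASH). The highest WT_NASH liver, 20, exceeded the highest LKO_NASH liver, 21, and the log2 fold change was -0.52 ± 0.43 (SE; adjusted p = 0.555). Ccne1 (cyclin E1, the partner of Cdk2 at entry into S phase) had FPKM of 1.98, 1.69, 2.3 and 3.19 (WT_NASH) against 1.91, 1.36, 1.12 and 1.58 (LKO_NASH). In LKO_NASH 3 livers lay below all WT_NASH livers and liver 21 did not, with a log2 fold change of -0.76 ± 0.22 (adjusted p = 0.31). Its relative Ccne2 gave 0.33, 0.56, 0.57 and 0.52 (WT_NASH) against 0.59, 0.93, 0.39 and 0.55 (LKO_NASH), without a separation (log2 fold change 0.18 ± 0.29). E2f1 (a transcription factor that raises S phase genes) gave 0.66, 0.75, 1.27 and 0.93 (WT_NASH) against 1.01, 2.2, 2.18 and 2.38 (LKO_NASH). Livers 22 to 24 were above every WT_NASH liver and liver 21 lay within the WT_NASH range. The log2 fold change was 0.95 ± 0.28 (adjusted p = 0.315). It was 1.15 without liver 21 (adjusted p = 0.0375), but leaving out that liver widens the gap by construction, so this call supports nothing. Cdk2, the S phase kinase, had a log2 fold change of 0.11 ± 0.13.

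The MCM helicase genes, whose products form the ring that opens DNA at the fork, had log2 fold changes from -0.25 to 0.72. Mcm5 alone of the 6 had groups that did not overlap, at 0.56, 0.26, 0.62 and 0.56 (WT_NASH) against 1.02, 0.72, 1.01 and 0.94 (LKO_NASH). All 4 LKO_NASH livers lay above the WT_NASH livers (log2 fold change 0.72 ± 0.26, unadjusted p = 0.0206, adjusted p = 0.35). Mcm2 gave 1.25, 0.5, 1.3 and 1.93 (WT_NASH) against 2.22, 1.06, 1.3 and 1.3 (LKO_NASH), with WT_NASH liver 18 lowest and LKO_NASH liver 21 highest (log2 fold change 0.10 ± 0.36). Mcm3 gave 1.17, 0.81, 1.37 and 1.63 (WT_NASH) against 2.05, 1.28, 1.53 and 1.71 (LKO_NASH) and Mcm4 1.06, 0.99, 1.27 and 1.5 (WT_NASH) against 1.67, 1.35, 1.76 and 1.31 (LKO_NASH). In both genes liver 18 was the lowest of all 8, and the groups overlapped. Mcm6 gave 3.91, 0.47, 1.15 and 3.2 (WT_NASH) against 3.95, 1.37, 1.35 and 1.37 (LKO_NASH). It was the least even helicase gene: livers 17, 20 and 21 were at or above 3.2 and the other 5 at or below 1.37, across the groups, so the log2 fold change of -0.25 had an SE of 0.62 and turned to 0.00 and 0.11 on log2(FPKM + 1) and log2(FPKM + 0.1). Mcm7 gave 5.18, 4.67, 4.6 and 6.63 (WT_NASH) against 5.86, 5.03, 3.93 and 5.73 (LKO_NASH), with a log2 fold change of -0.18 ± 0.15. Adjusted p-values of the 6 helicase genes ran from 0.35 to 0.897.

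At the fork, Lig1 (DNA ligase 1, which seals the fragments of the lagging strand) had FPKM of 0.4, 0.45, 0.59 and 0.71 (WT_NASH) against 1.17, 1.16, 1.17 and 1.29 (LKO_NASH). Every LKO_NASH liver was above every WT_NASH liver and the LKO_NASH livers were close together; the log2 fold change was 1.00 ± 0.18 (adjusted p = 0.305). Pcna (the sliding clamp of the polymerases) also separated the groups, at 16.7, 17.9, 19.03 and 19.1 (WT_NASH) against 21.2, 20.5, 21.9 and 21.3 (LKO_NASH). The step was small, with a log2 fold change of 0.08 ± 0.08 on the count scale (adjusted p = 0.627).

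None of the 4 nucleotide supply genes separated the groups. Rrm2 (the small subunit of ribonucleotide reductase, made in S phase) gave 1.08, 2.47, 5.32 and 6.72 (WT_NASH) against 4.00, 2.98, 3.07 and 4.24 (LKO_NASH). The WT_NASH livers spanned the whole LKO_NASH range (log2 fold change -0.26 ± 0.44, adjusted p = 0.773), and the direction turned on the FPKM scales, at 0.07 and 0.16. Its partner Rrm1 gave 2.5, 2.02, 2.42 and 2.54 (WT_NASH) against 2.7, 2.51, 2.31 and 3.26 (LKO_NASH), with a log2 fold change of 0.03 ± 0.11. Tyms (thymidylate synthase) had a log2 fold change of 0.06 ± 0.08, and LKO_NASH livers of 5.62 to 7.09 FPKM against 5.05 to 5.68. Tk1 gave 8.81, 16.99, 8.1 and 5.78 (WT_NASH) against 4.44, 23.2, 19.1 and 13.8 (LKO_NASH), with a log2 fold change of 0.45 ± 0.49 (adjusted p = 0.65). Liver 21 was lowest and liver 22 highest of all 8, both in LKO_NASH. Afmid, which overlaps Tk1 on the chromosome, gave 35.03, 68.1, 36.6 and 23.0 in WT_NASH and 20.4, 80.3, 71.7 and 58.3 in LKO_NASH, with the same highest and lowest livers. The labels do not say whether the counting used strand, so reads of Tk1 and Afmid cannot be told apart, and the share of Afmid in the Tk1 values was not tested.

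The mitotic entry genes all had higher means in LKO_NASH at low levels. Ccna2 (cyclin A2, active in S and G2 phase) had FPKM of 0.19, 0.09, 0.19 and 0.22 (WT_NASH) against 0.42, 0.21, 0.42 and 0.49 (LKO_NASH). Only LKO_NASH liver 22 was within the WT_NASH range (log2 fold change 0.98 ± 0.35, adjusted p = 0.35). Cdk1 (the kinase that starts mitosis) gave 0.24, 0.23, 0.16 and 0.28 (WT_NASH) against 0.47, 0.39, 0.29 and 0.52 (LKO_NASH), with no overlap and a log2 fold change of 0.74 ± 0.26. Ccnb2 (a mitotic cyclin) gave 0.07, 0.06, 0.23 and 0.31 (WT_NASH) against 0.48, 0.33, 0.39 and 0.37 (LKO_NASH), also without overlap, from 2 to 16 counts in WT_NASH and 13 to 21 in LKO_NASH. Its log2 fold change was 1.00 ± 0.44 (adjusted p = 0.368). Ccnb1, below the filter, gave 0, 0.02, 0.13 and 0.08 (WT_NASH) against 0.28, 0.1, 0.14 and 0.28 (LKO_NASH), where WT_NASH liver 17 was listed at 0 and the groups overlapped. Plk1 (polo-like kinase 1) gave 0.16, 0.13, 0.16 and 0.19 (WT_NASH) against 0.43, 0.29, 0.17 and 0.46 (LKO_NASH), and LKO_NASH liver 23 lay within the WT_NASH range. Its log2 fold change was 0.93 ± 0.33. Aurka (the kinase of the spindle poles) was the highest of these genes in the NASH livers, at 0.72, 0.82, 0.9 and 0.99 (WT_NASH) against 1.05, 1.35, 1.17 and 1.62 (LKO_NASH), without overlap (log2 fold change 0.44 ± 0.17, adjusted p = 0.356).

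Among the members tested in the deletion experiment, the chromosome and spindle genes held the widest differences. Mki67 (Ki-67, the usual histological marker of dividing cells, which coats mitotic chromosomes) had FPKM of 0.05, 0.07, 0.07 and 0.08 (WT_NASH) against 0.44, 0.19, 0.2 and 0.3 (LKO_NASH), on 14 to 31 counts in WT_NASH and 44 to 129 in LKO_NASH. Every LKO_NASH liver was at least at 0.19 and no WT_NASH liver was above 0.08; the log2 fold change was 1.87 ± 0.32 (SE), a fold of 3.65, with adjusted p = 0.305. Top2a (the topoisomerase that untangles sister chromatids) gave 0.05, 0.07, 0.19 and 0.14 (WT_NASH) against 0.49, 0.25, 0.24 and 0.43 (LKO_NASH), with no overlap and a log2 fold change of 1.43 ± 0.40 (adjusted p = 0.31). Racgap1 (a part of the central spindle needed to divide the cell) gave 0.04, 0.03, 0.16 and 0.12 (WT_NASH) against 0.34, 0.18, 0.32 and 0.47 (LKO_NASH), with no overlap and a log2 fold change of 1.65 ± 0.47. Aurkb (the kinase of the chromosomal passenger complex) had the highest log2 fold change, 1.98 ± 0.63, at 0.06, 0, 0.11 and 0.08 (WT_NASH) against 0.59, 0.2, 0.19 and 0.22 (LKO_NASH). That value leaned on LKO_NASH liver 21 and on 0 to 9 counts per liver in WT_NASH, and it was 1.39 without liver 21 and 2.45 without liver 19.

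Stmn1 (stathmin, which takes microtubules apart) was the G2/M gene with the highest level, at 2.57, 2.99, 2.89 and 3.41 (WT_NASH) against 6.21, 4.53, 5.85 and 7.03 (LKO_NASH). The lowest LKO_NASH liver was above the highest WT_NASH liver, with a log2 fold change of 0.84 ± 0.16 (adjusted p = 0.305). Birc5 (survivin, in the same complex as Aurkb) gave 0.36, 0.41, 0.37 and 0.47 (WT_NASH) against 0.82, 0.87, 0.84 and 0.89 (LKO_NASH), without overlap in FPKM. Its deposited transcript length was 2386 to 3416 bases in WT_NASH and 1736 to 2207 in LKO_NASH, so FPKM and counts differ in scale, and on counts the log2 fold change was 0.41 ± 0.18 (adjusted p = 0.369). Cenpa (the histone of the centromere) gave 1.18, 1.71, 1.64 and 1.48 (WT_NASH) against 1.26, 2.43, 2.11 and 2.55 (LKO_NASH) and Kif20a (a kinesin of cytokinesis) 0.13, 0.14, 0.25 and 0.26 (WT_NASH) against 0.31, 0.25, 0.16 and 0.25 (LKO_NASH). Both overlapped, with log2 fold changes of 0.34 ± 0.24 and 0.17 ± 0.28.

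Of the checkpoint and anaphase genes, Ube2c (which hands ubiquitin to the anaphase-promoting complex) had the lowest p of all members. Its FPKM was 0.47, 0.54, 0.79 and 0.69 (WT_NASH) against 1.69, 1.69, 1.96 and 2.14 (LKO_NASH), on 11 to 29 counts in WT_NASH and 39 to 63 in LKO_NASH. The groups were far apart relative to their spread, with a log2 fold change of 1.40 ± 0.21, a fold of 2.65, and adjusted p = 0.254. Cdc20 (the activator of the same complex) gave 0.12, 0.1, 0.22 and 0.2 (WT_NASH) against 0.51, 0.25, 0.31 and 0.35 (LKO_NASH), without overlap (log2 fold change 0.93 ± 0.34, adjusted p = 0.356). Bub1b (BubR1, which restrains Cdc20 until chromosomes are attached) gave 0.09, 0.19, 0.13 and 0.18 (WT_NASH) against 0.41, 0.19, 0.04 and 0.25 (LKO_NASH), and LKO_NASH liver 23 was the lowest of all 8. Its log2 fold change was 0.51 ± 0.54.

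**Figure D3:**
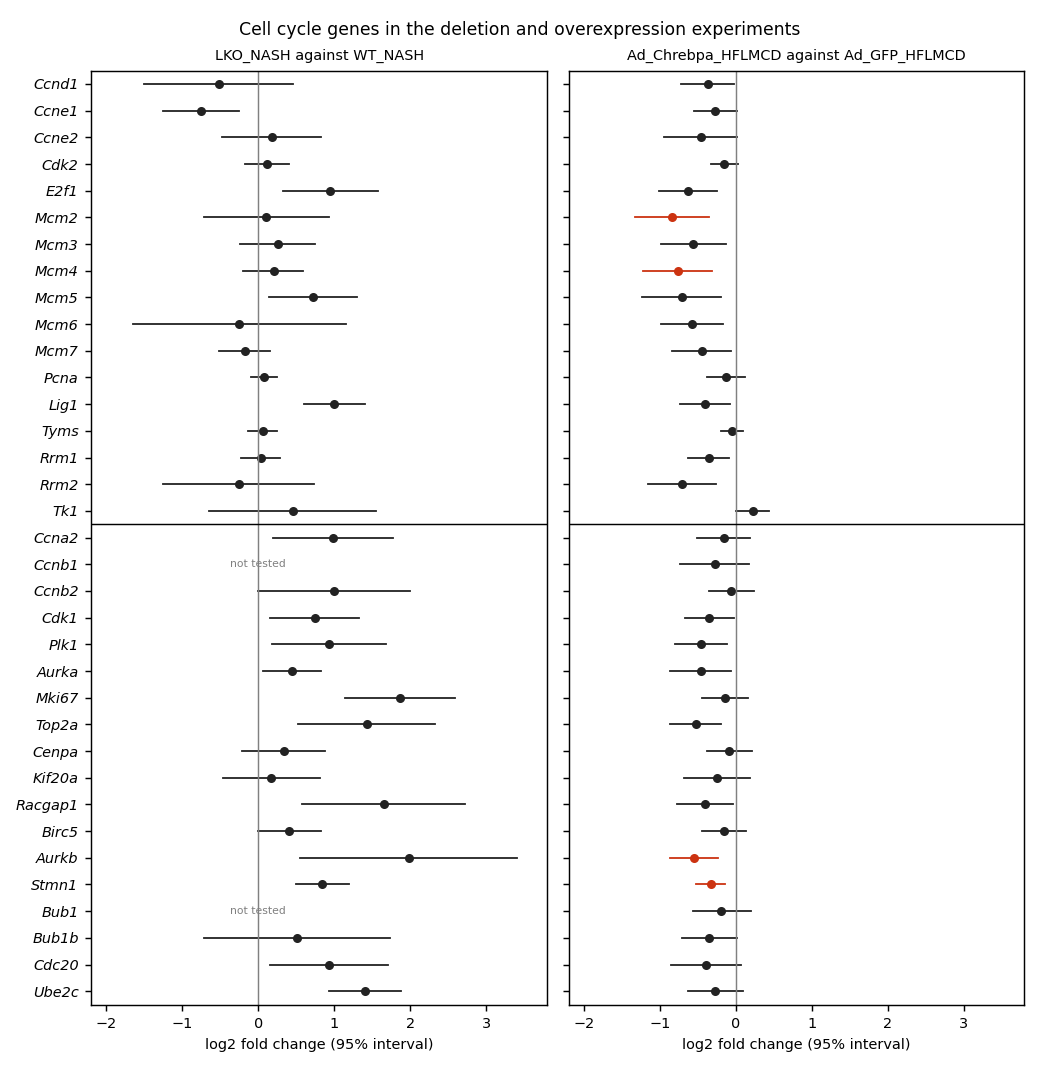
Log2 fold changes with 95% intervals from edgeR for each member in the deletion experiment (left) and the overexpression experiment (right), red where the adjusted p is below 0.05. On the left no gene is red and all 16 tested G2/M genes lie right of 0; on the right 34 of 35 genes lie left of 0 and Mcm2, Mcm4, Aurkb and Stmn1 are red.

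The summed FPKM of the 18 G2/M genes was 6.5, 7.60, 8.59 and 9.19 in WT_NASH and 16.3, 13.7, 14.8 and 18.6 in LKO_NASH, so the groups did not overlap. Stmn1 was the largest part, with means of 2.97 and 5.91 beside mean sums of 7.97 and 15.9. Summed over the 17 G1/S and replication genes it was 64.3 to 91.0 and 78.7 to 84.0, which overlapped. Without Ccnd1 these sums were 54.5 to 64.7 and 63.1 to 76.5, which overlapped too. Markers of other liver cells were measured in the same libraries. All 12 macrophage and Kupffer cell markers had positive log2 fold changes (median 0.85, 6 with an unadjusted p below 0.05), and their summed FPKM was 91.0, 67.5, 149 and 107 in WT_NASH and 228, 199, 87.5 and 242 in LKO_NASH. Liver 23 was within the WT_NASH range for the macrophage sum and above it for the G2/M sum. T and NK cell markers summed to 1.59 to 2.05 in WT_NASH and 2.58 to 3.58 in LKO_NASH, with 4 of the 9 tested and 3 of those positive, and Trbc2 not listed in any liver. Hepatocyte markers summed to 63800 to 75100 and 56500 to 67800, with 9 of 10 negative (median -0.33). Most markers of 4 other lists were positive too, with summed FPKM that overlapped between the groups. These were sinusoidal endothelium (6 of 7, median 0.29, sums of 45.6 to 62.9 in WT_NASH and 57.4 to 103 in LKO_NASH), stellate cells (7 of 8, median 0.06, 96.7 to 131 and 118 to 180), B and plasma cells (4 of 4 tested, median 0.39, 3.08 to 4.8 and 4.47 to 9.86) and erythroid cells (6 of 6 tested, median 0.48, 876 to 2040 and 1420 to 2840). Neutrophil markers were negative in 2 of 3 tested and cholangiocyte markers in 3 of 5 tested. None of the markers of these 9 lists passed the test. Their part in the differences of the cell cycle genes was not tested.

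**Figure D4:**
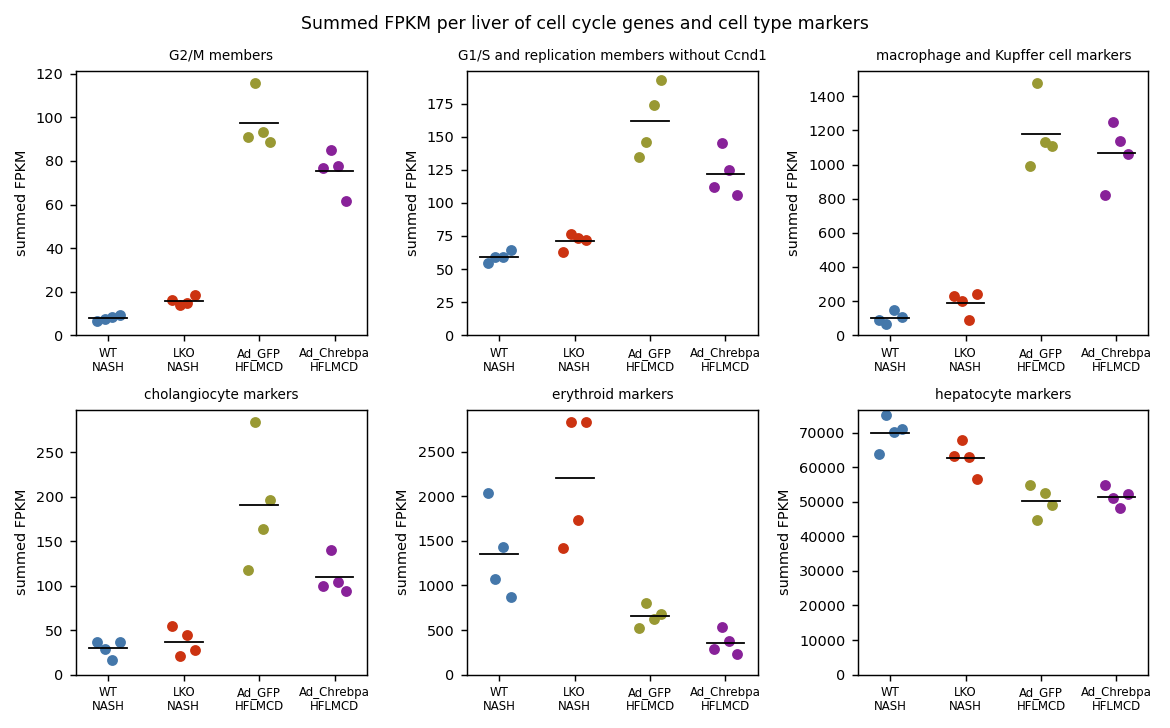
Summed FPKM per liver of the G2/M genes, the G1/S and replication genes without Ccnd1, and 4 lists of cell type markers, with 1 point per liver and a bar at the group mean. The G2/M sums of 6.5 to 9.19 in WT_NASH and 13.7 to 18.6 in LKO_NASH do not overlap, and both lie far below the HFLMCD sums of 61.5 to 116.

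The second comparison asks what added ChREBPα did under the HFLMCD diet. By sign, 34 of the 35 log2 fold changes were negative and modest in Ad_Chrebpa_HFLMCD, with Tk1 as the exception, beside 52.6% negative and 47.4% positive over all genes. The members share the same livers, so their signs are not independent. Summed FPKM of the G1/S and replication genes overlapped, at 241 to 326 in Ad_GFP_HFLMCD and 194 to 258 in Ad_Chrebpa_HFLMCD (135 to 193 and 106 to 145 without Ccnd1). That of the G2/M genes did not, at 88.9 to 116 and 61.5 to 85.2. Stmn1 was the largest part of it, with means of 33.9 and 25.5 beside mean sums of 97.3 and 75.4. Taken singly, 14 of the 18 G2/M genes overlapped. The test was passed by 4 genes, the helicase subunits Mcm2 and Mcm4, the mitotic kinase Aurkb and the microtubule regulator Stmn1, and all 4 fell. They are 4 of 35, beside 3.18% of all 13656 genes called lower and 4.96% called higher. None of the members was called higher by edgeR, DESeq2 or limma-voom, and none had an unadjusted p below 0.05 in that direction. Without adjustment 18 of 35 had a p below 0.05 in the lower direction, beside 13.0% of all genes. The median log2 fold change was -0.45 over the G1/S and replication genes, -0.31 over the G2/M genes and -0.01 over all genes. In 8 of 35 members every Ad_Chrebpa_HFLMCD liver had a lower FPKM than every Ad_GFP_HFLMCD liver, beside 14.5% of all genes.

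Of the 1111 genes called on counts 60.9% were higher. The fits on FPKM made their own calls. On log2(FPKM + 1) 1444 genes were called, 30.2% of them higher, and on log2(FPKM + 0.1) 1493, 30.1% of them higher. The all-gene median was -0.06 and -0.08 on these scales. On both scales 6 members were called lower (the 4, E2f1 and Rrm2), beside 7.38% and 7.64% of all genes. The 4 calls depended on the fit and on single livers. The 4 adjusted p-values lay between 0.0446 and 0.0489. DESeq2 called 12 members lower and none higher (6.17% and 8.08% of all genes), limma-voom 2 and edgeR without a filter 2 (Mcm2 and Mcm4 in both, beside 3.17% and 2.4% of all genes), and the fit to all 16 livers 0. No member was called without liver 11, 12, 13 or 16. Without liver 14 edgeR called 12 members, the 4 among them, beside 5.65% of all genes lower and 6.76% higher. Liver 14 was the Ad_Chrebpa_HFLMCD liver nearest Ad_GFP_HFLMCD on the leading principal component (10.49, the others 24.2 to 27.9). Leaving it out widens the gap by construction, so these 12 calls support nothing. Aurkb and Stmn1 were not called without liver 9, 10 or 15. The calls were E2f1, Mcm2, Rrm2 and Top2a without liver 9 (2.17% of all genes), E2f1, Mcm2, Mcm4 and Rrm2 without liver 10 (2.51%), and Top2a alone without liver 15 (1.51%).

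The helicase genes gave the clearest group, with all 6 negative and all 6 at an unadjusted p below 0.05. Mcm2 had FPKM of 6.88, 7.42, 9.99 and 11.4 (Ad_GFP_HFLMCD) against 4.24, 6.55, 4.97 and 3.24 (Ad_Chrebpa_HFLMCD), so that every Ad_Chrebpa_HFLMCD liver was below every Ad_GFP_HFLMCD liver. It fell by 0.84 on the log2 scale (SE 0.22, adjusted p = 0.0446). Mcm4 gave 5.75, 6.04, 8.42 and 8.54 (Ad_GFP_HFLMCD) against 3.4, 5.69, 4.03 and 3.03 (Ad_Chrebpa_HFLMCD), also without overlap, and fell by 0.76 (SE 0.20, adjusted p = 0.0483). Mcm5 gave 5.19, 4.79, 7.89 and 8.35 (Ad_GFP_HFLMCD) against 3.27, 5.27, 3.98 and 2.76 (Ad_Chrebpa_HFLMCD), and Mcm6 gave 12.2, 14.9, 18.1 and 20.6 (Ad_GFP_HFLMCD) against 8.75, 13.5, 11.4 and 8.52 (Ad_Chrebpa_HFLMCD). In both genes liver 14 reached into the Ad_GFP_HFLMCD range, and the log2 fold changes were -0.71 ± 0.23 and -0.58 ± 0.18. Mcm3 gave 7.64, 8.13, 11.1 and 12.5 (Ad_GFP_HFLMCD) against 5.21, 8.58, 6.11 and 5.66 (Ad_Chrebpa_HFLMCD), and Mcm7 gave 9.54, 10.6, 12.3 and 15.1 (Ad_GFP_HFLMCD) against 6.78, 10.6, 8.95 and 6.78 (Ad_Chrebpa_HFLMCD). Their log2 fold changes were -0.56 ± 0.19 and -0.45 ± 0.17, and the adjusted p-values of the 4 genes not called ran from 0.0781 to 0.127. In all 6 genes liver 14 was the highest of the Ad_Chrebpa_HFLMCD livers, and livers 11 and 12 were above livers 9 and 10.

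Among the G1 cyclins and regulators none passed the test. E2f1 gave 3.69, 4.05, 4.73 and 6.1 (Ad_GFP_HFLMCD) against 2.32, 3.5, 2.93 and 2.72 (Ad_Chrebpa_HFLMCD), without overlap (log2 fold change -0.63 ± 0.17, adjusted p = 0.0508). Ccnd1 gave 121, 94.9, 152 and 126 (Ad_GFP_HFLMCD) against 81.9, 113, 79.9 and 89.7 (Ad_Chrebpa_HFLMCD), and liver 14 lay within the range of Ad_GFP_HFLMCD. Its log2 fold change was -0.37 ± 0.16 (adjusted p = 0.163). Ccne1 gave 3.86, 3.41, 4.38 and 3.88 (Ad_GFP_HFLMCD) against 3.11, 3.53, 2.93 and 2.68 (Ad_Chrebpa_HFLMCD) and Ccne2 1.48, 1.53, 2.39 and 2.55 (Ad_GFP_HFLMCD) against 1.3, 1.73, 1.34 and 1.14 (Ad_Chrebpa_HFLMCD). Both overlapped, with log2 fold changes of -0.27 ± 0.12 and -0.46 ± 0.21. Cdk2 was 6.02 to 7.32 in Ad_GFP_HFLMCD and 5.33 to 5.89 in Ad_Chrebpa_HFLMCD, without overlap, but with a log2 fold change of only -0.15 ± 0.08.

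Fork and nucleotide genes differed less evenly. Lig1 gave 3.96, 4.77, 5.25 and 6.65 (Ad_GFP_HFLMCD) against 3.49, 4.21, 3.78 and 3.29 (Ad_Chrebpa_HFLMCD), overlapping through liver 14 (log2 fold change -0.41 ± 0.15). Pcna gave 39.5, 41.5, 47.2 and 53.3 (Ad_GFP_HFLMCD) against 36.1, 45.6, 41.7 and 34.7 (Ad_Chrebpa_HFLMCD), with a log2 fold change of -0.13 ± 0.11. Rrm2 gave 6.47, 7.39, 12.2 and 10.7 (Ad_GFP_HFLMCD) against 5.22, 6.55, 4.99 and 4.67 (Ad_Chrebpa_HFLMCD), where liver 14 was just above liver 9 and the other 3 livers were below all of Ad_GFP_HFLMCD. Its log2 fold change was -0.71 ± 0.20 (adjusted p = 0.0585). Rrm1 gave 6.58, 7.01, 7.83 and 9.38 (Ad_GFP_HFLMCD) against 5.52, 6.62, 5.66 and 5.01 (Ad_Chrebpa_HFLMCD), with a log2 fold change of -0.36 ± 0.12 and adjusted p = 0.0918. Tyms was nearly level, at -0.05 ± 0.07. Tk1 was the 1 positive member, at 8.07, 10.9, 8.51 and 8.87 (Ad_GFP_HFLMCD) against 10.8, 10.6, 9.7 and 9.06 (Ad_Chrebpa_HFLMCD) and a log2 fold change of 0.22 ± 0.10 (adjusted p = 0.195). Afmid was 18.1 to 20.4 FPKM in Ad_GFP_HFLMCD and 21.9 to 33.0 in Ad_Chrebpa_HFLMCD, and the share of its reads in Tk1 was not tested.

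In the chromosome and spindle group 2 genes passed the test. Aurkb had FPKM of 2.05, 2.84, 2.07 and 2.77 (Ad_GFP_HFLMCD) against 1.4, 1.8, 1.53 and 1.57 (Ad_Chrebpa_HFLMCD), without overlap, and fell by 0.55 (SE 0.14, adjusted p = 0.0461). Stmn1 gave 31.6, 40.1, 32.6 and 31.5 (Ad_GFP_HFLMCD) against 26.1, 28.3, 25.5 and 22.2 (Ad_Chrebpa_HFLMCD), also without overlap, and fell by 0.33 (SE 0.09, adjusted p = 0.0489). Top2a gave 2.59, 3.6, 3.48 and 3.86 (Ad_GFP_HFLMCD) against 1.92, 2.37, 2.82 and 1.8 (Ad_Chrebpa_HFLMCD), where liver 15 was above liver 9 (log2 fold change -0.53 ± 0.15, adjusted p = 0.0595). Racgap1 gave 2.79, 3.8, 2.67 and 2.84 (Ad_GFP_HFLMCD) against 1.97, 2.34, 2.73 and 1.57 (Ad_Chrebpa_HFLMCD), with a log2 fold change of -0.41 ± 0.17. Mki67 gave 2.51, 3.41, 2.27 and 2.16 (Ad_GFP_HFLMCD) against 2.1, 2.3, 2.59 and 1.9 (Ad_Chrebpa_HFLMCD). Its groups overlapped and the log2 fold change was -0.14 ± 0.13 (adjusted p = 0.536), with a 95% interval from -0.44 to 0.16. Cenpa gave 5.29, 7.73, 6.14 and 5.97 (Ad_GFP_HFLMCD) against 5.73, 6.85, 5.36 and 4.74 (Ad_Chrebpa_HFLMCD), Kif20a gave 2.57, 3.43, 2.52 and 1.75 (Ad_GFP_HFLMCD) against 2.23, 2.3, 2.08 and 1.53 (Ad_Chrebpa_HFLMCD) and Birc5 gave 5.99, 6.36, 5.6 and 4.62 (Ad_GFP_HFLMCD) against 5.56, 5.23, 4.64 and 3.9 (Ad_Chrebpa_HFLMCD). All 3 overlapped, with log2 fold changes of -0.09, -0.25 and -0.15.

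The mitotic entry genes were all negative and none was called. Plk1 gave 2.48, 3.42, 2.52 and 2.39 (Ad_GFP_HFLMCD) against 1.89, 2.17, 1.94 and 1.45 (Ad_Chrebpa_HFLMCD) and Cdk1 2.82, 3.48, 3.09 and 3.4 (Ad_GFP_HFLMCD) against 2.36, 2.75, 2.7 and 1.71 (Ad_Chrebpa_HFLMCD). Neither overlapped, and the log2 fold changes were -0.46 ± 0.15 (adjusted p = 0.0902) and -0.35 ± 0.14 (adjusted p = 0.149). Aurka gave 2.81, 4.08, 3.94 and 4.6 (Ad_GFP_HFLMCD) against 2.54, 3.49, 2.53 and 2.08 (Ad_Chrebpa_HFLMCD) (log2 fold change -0.46 ± 0.18). Ccna2 gave 3.05, 4.64, 3.5 and 3.58 (Ad_GFP_HFLMCD) against 3.08, 3.56, 3.56 and 2.29 (Ad_Chrebpa_HFLMCD), and the cyclins B gave 1.94, 3.41, 2.29 and 2.14 (Ad_GFP_HFLMCD) against 1.81, 2.44, 1.97 and 1.38 (Ad_Chrebpa_HFLMCD) for Ccnb1 and 4.97, 6.17, 5.39 and 3.89 (Ad_GFP_HFLMCD) against 5.03, 4.51, 4.82 and 4.29 (Ad_Chrebpa_HFLMCD) for Ccnb2. These 3 overlapped, with log2 fold changes of -0.16, -0.28 and -0.06.

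The 4 checkpoint and anaphase genes all overlapped. Cdc20 gave 5.75, 5.77, 5.22 and 3.49 (Ad_GFP_HFLMCD) against 4.32, 4.44, 3.3 and 2.59 (Ad_Chrebpa_HFLMCD), and Ube2c gave 9.99, 11.2, 8.41 and 7.98 (Ad_GFP_HFLMCD) against 7.57, 8.56, 8.15 and 5.21 (Ad_Chrebpa_HFLMCD). Bub1b gave 1.24, 1.87, 1.38 and 1.44 (Ad_GFP_HFLMCD) against 0.88, 1.32, 1.27 and 0.96 (Ad_Chrebpa_HFLMCD), and Bub1 gave 0.38, 0.56, 0.43 and 0.55 (Ad_GFP_HFLMCD) against 0.35, 0.45, 0.42 and 0.37 (Ad_Chrebpa_HFLMCD). Their log2 fold changes ran from -0.39 for Cdc20 to -0.19 for Bub1, with adjusted p-values from 0.2 to 0.526.

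In Ad_GFP_HFLMCD the liver with the highest values differed between G2/M and the other genes, and in Ad_Chrebpa_HFLMCD it did not. In Ad_GFP_HFLMCD liver 10 had the highest FPKM for 16 of the 18 G2/M genes but for 1 of the 17 G1/S and replication genes, for 12 of which liver 12 was highest. In Ad_Chrebpa_HFLMCD liver 14 was highest for 14 of 17 and 12 of 18, and liver 16 was lowest for 11 and 15. Liver 10 was also the highest of all 16 livers for the summed macrophage markers (1480 FPKM), cholangiocyte markers (284) and stellate cell markers (574). The same held for neutrophil markers (48.3) and sinusoidal endothelium markers (129), but not for hepatocyte, T and NK cell, B and plasma cell or erythroid markers. Between the groups the summed macrophage markers were 993 to 1480 and 820 to 1250, with 5 of 12 positive and 7 negative and 1 called higher. All 6 cholangiocyte markers were negative and 4 of them were called lower (median log2 fold change -0.97, summed FPKM 118 to 284 against 93.4 to 140). Spp1 alone made up most of that sum, at 110 to 272 FPKM in Ad_GFP_HFLMCD and 88.6 to 135 in Ad_Chrebpa_HFLMCD. Hepatocyte markers were positive in 9 of 10 with 1 called higher. B and plasma cell markers were positive in 5 of 6, with 2 called higher (median 0.53), and their sums of 5.91 to 8.14 in Ad_GFP_HFLMCD and 10.9 to 23.2 in Ad_Chrebpa_HFLMCD did not overlap. Jchain was the largest part of these sums, at 2.64 to 3.68 FPKM in Ad_GFP_HFLMCD and 7.62 to 18.3 in Ad_Chrebpa_HFLMCD. Stellate cell markers were negative in 6 of 8, 3 with an unadjusted p below 0.05 and none called (377 to 574 against 372 to 458). Erythroid markers had 1 called higher and 1 lower of 5 tested, with sums of 519 to 806 against 229 to 535. No T and NK cell, neutrophil or sinusoidal endothelium marker was called or had an unadjusted p below 0.05. Their part in the values of the cell cycle genes was not tested.

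The third comparison sets the control groups of the experiments side by side, WT_NASH against Ad_GFP_HFLMCD. Diet, weeks on the diet, the floxed alleles, the virus and the experiment itself all differ between them and cannot be told apart. All 18 G2/M genes and 12 of the 17 G1/S and replication genes were lower in WT_NASH, 30 of 35 in all, beside 30.9% of all 13485 genes called lower and 28.2% called higher. Some passed the filter through Ad_GFP_HFLMCD: no WT_NASH liver exceeded 2 counts for Bub1, 12 for Ccnb1 or 9 for Aurkb. So this count describes the tested members and supports nothing. With no filter on low counts 30 members were also lower, the 18 G2/M genes among them, beside 4366 of all 16971 genes. No member was called higher by edgeR with all 8 livers, its own scaling and the filter on low counts, while Tk1 had an unadjusted p of 0.0298 (adjusted p = 0.0504) and was called higher by DESeq2 (adjusted p = 0.02), as were 29.7% of all genes. DESeq2 called the same 30 members lower, beside 31.2% of all genes. Tk1 also passed in edgeR with DESeq2's size factors (adjusted p = 0.0483), with no filter on low counts (0.0489), without liver 19 (0.0475) and without liver 20 (0.00842). The median log2 fold change was -3.59 over the G2/M genes, -1.38 over the G1/S and replication genes and -0.01 over all genes. In 33 of 35 members every WT_NASH liver was below every Ad_GFP_HFLMCD liver in FPKM, beside 68.9% of all genes, and in none above (4.52%). By sign 33 were negative and 2 positive, beside 50.6% and 49.4%. On log2(FPKM + 1) and log2(FPKM + 0.1) the median of all genes was -0.44 and -0.61, and 7.0% of the calls on log2(FPKM + 1) were higher, against 47.8% on counts with TMM scaling. The differences below are on the count scale.

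The G2/M genes ran from -1.46 ± 0.16 for Cenpa to -4.60 ± 0.46 for Ccnb1 on the log2 scale, leaving aside Bub1, whose 2 counts in all of WT_NASH give no fold. Ccnb1 rested on 0, 1, 12 and 6 counts in WT_NASH, and was -5.4 without liver 19. Mki67 was at 0.05 to 0.08 FPKM in WT_NASH and 2.16 to 3.41 in Ad_GFP_HFLMCD, with -4.58 ± 0.19 (SE) as its log2 fold change (adjusted p = 5.07e-07). Stmn1, at 2.57 to 3.41 and 31.5 to 40.1, had the lowest p of all members (-2.89 ± 0.11, adjusted p = 2.97e-07), and Cdk1 the third lowest (-3.20 ± 0.18, adjusted p = 1.56e-06). Aurkb (-4.49), Racgap1 (-4.33), Cdc20 (-4.27), Ccnb2 (-4.19) and Top2a (-4.17) came next to Mki67 and Ccnb1 in size. Aurka (-1.54), Cenpa and Birc5 (-1.96) moved least. For Birc5 the scale matters: its deposited length was 1188 to 1247 bases in Ad_GFP_HFLMCD, and the difference on log2(FPKM + 0.1) was -3.51. All 18 calls held under every alternative run.

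Of the G1/S and replication genes, Mcm5 differed most, at 0.26 to 0.62 FPKM in WT_NASH and 4.79 to 8.35 in Ad_GFP_HFLMCD (-3.07 ± 0.27, adjusted p = 1.13e-05). Lig1 (-2.62), Ccnd1 (-2.61), Mcm3 (-2.35), Mcm6 (-2.29) and Mcm2 (-2.21) followed. Mcm7 (-0.55) and Pcna (-0.70) had the smallest differences that passed. Ccne1 (-0.14 ± 0.17), Cdk2 (-0.19 ± 0.11), Tyms (0.12 ± 0.08), Rrm2 (-0.62 ± 0.43) and Tk1 (0.76 ± 0.30) did not pass. On log2(FPKM + 1) and log2(FPKM + 0.1), which carry the all-gene shift, 34 of 35 members were called lower, beside 73.1% and 73.3% of all genes. Ccne1 (-0.59 and -0.77), Cdk2 (-0.68 and -0.81), Rrm2 (-1.2 and -1.47) and Tyms (-0.43 and -0.49) passed there, and for Tyms the direction turned. Macrophage and Kupffer cell markers were lower in WT_NASH in 10 of 12 and higher in 1, with sums of 67.5 to 149 FPKM against 993 to 1480. All 10 hepatocyte markers were called higher (median log2 fold change 1.18). Of the T and NK cell markers 7 of 8 tested were called lower, of the stellate cell markers 7 of 8 (96.7 to 131 FPKM against 377 to 574), of the neutrophil markers 3 of 3 tested and of the cholangiocyte markers 3 of 6. B and plasma cell markers had 2 of 6 called lower and 1 higher, erythroid markers 5 of 6 tested called higher, and sinusoidal endothelium markers none of 7 called. The part of these cells in the cell cycle differences was not tested.

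**Figure D5:**
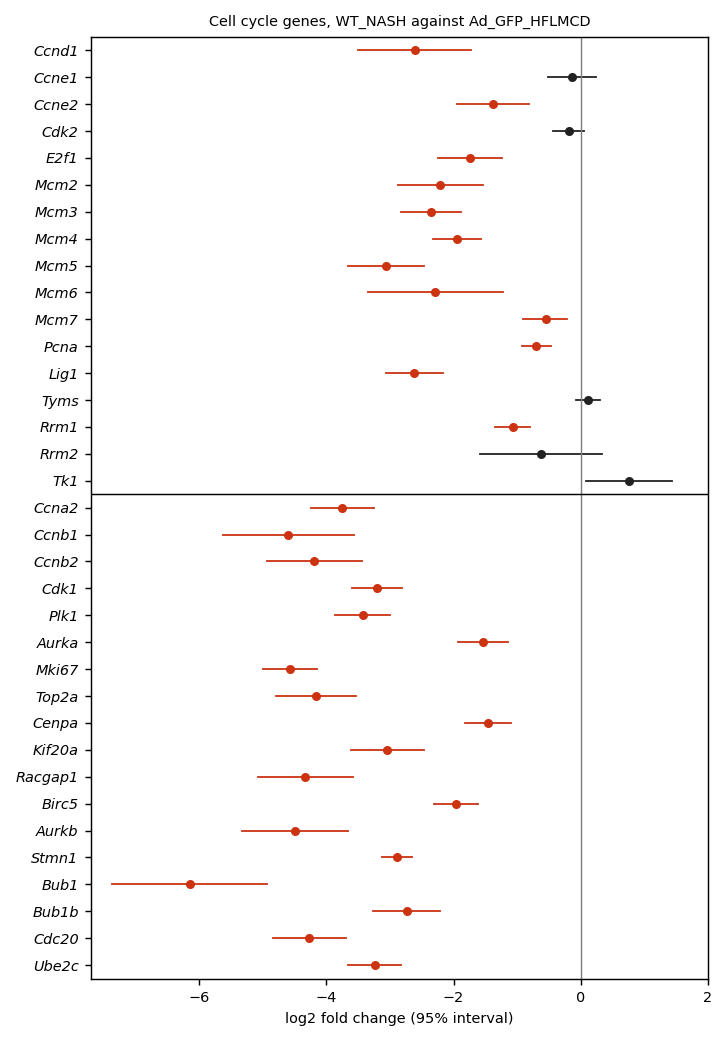
Log2 fold changes with 95% intervals from edgeR for the 35 members between the control groups, red where the adjusted p is below 0.05. All 18 G2/M genes are red and left of 0, Ccne1, Cdk2, Tyms, Rrm2 and Tk1 are not red, and the value of Bub1 rests on 2 counts in WT_NASH and is no measure of size.

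A further 92 genes of the same pathway were taken from a list by function. The list was chosen with earlier results of these data known, so it is no independent check in any comparison. In the deletion experiment 82 were tested and none was called by edgeR (10 had an unadjusted p below 0.05 higher and 2 lower, beside 7.68% and 5.87% of all genes), with a median log2 fold change of 0.09. Of the 30 mitosis genes listed, 23 passed the filter on low counts. These had a median of 0.37, with 19 positive, beside 51.6% of all genes tested. The 13 tested E2F, DREAM and FOXM1 regulators had a median of -0.13. Genes with low counts can pass the filter through the group where they are higher. So these counts describe the tested genes and support nothing. The 4 lowest p-values were those of Foxm1 (the transcription factor of G2/M genes, 1.58 ± 0.36), Tpx2 (a spindle assembly factor, 0.87 ± 0.21), Prc1 (which bundles the central spindle, 0.81 ± 0.21) and Smc2 (a condensin subunit, 0.60 ± 0.16). In all 4 every LKO_NASH liver was above every WT_NASH liver in FPKM, as for 6.93% of all genes. The adjusted p was 0.305 for the first 3 and 0.31 for Smc2. Foxm1 was at 0.05 to 0.07 FPKM in WT_NASH and 0.1 to 0.27 in LKO_NASH, near the lower end of what these libraries could measure.

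In the overexpression experiment 2 of these 92 genes were called higher and 5 lower, beside 4.96% and 3.18% of all genes, and 39 had an unadjusted p below 0.05 in the lower direction, beside 13.0%. The median log2 fold change was -0.30. Those called lower were E2f2 (an activating E2F, -0.87 ± 0.14, adjusted p = 0.0089), Orc6 (a subunit of the origin recognition complex, -0.52 ± 0.13), Rbl1 (the pocket protein p107, -0.46 ± 0.09), Prc1 (-0.45 ± 0.12) and Pola1 (the catalytic subunit of polymerase alpha, -0.38 ± 0.09). Those called higher were Mcm10 (a replication initiation factor outside the helicase ring, 0.48 ± 0.09, adjusted p = 0.0145) and Rbl2 (the pocket protein p130 of resting cells, 0.39 ± 0.09, adjusted p = 0.0265). Mcm10 thus had the opposite direction to Mcm2 and Mcm4, with mean FPKM of 16.1 ± 1.33 in Ad_Chrebpa_HFLMCD and 12.1 ± 1.31 in Ad_GFP_HFLMCD.

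Between the control groups 61 of the 92 were lower in WT_NASH and 7 higher, beside 30.9% and 28.2% of all genes, with a median of -1.0. Mitosis genes made up 28 of the 61 (median -2.22 over the 30 of that list). The 4 lowest p-values were those of Prc1 (-3.40 ± 0.15), Foxm1 (-4.12 ± 0.20), Mcm10 (1.48 ± 0.09) and Tpx2 (-2.83 ± 0.17). Foxm1 was at 0.0575 ± 0.00957 FPKM in WT_NASH and 1.54 ± 0.274 in Ad_GFP_HFLMCD. The 7 that were higher were Mcm10, Ccnf (cyclin F, 1.32 ± 0.15), Rbl2 (1.03 ± 0.09), Lin52, Gins4, Ccnd3 and Lin54 (0.23 to 0.49). Lin52, Gins4, Ccnd3 and Lin54 had a lower mean FPKM in WT_NASH, so their direction turned with the scaling. Rbl2 and Mcm10 were the 2 genes of the list called higher both here and in the overexpression experiment; these comparisons share the Ad_GFP_HFLMCD livers.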

How the data were processed

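RNA of 16 mouse livers was analysed, 1 library each, in 4 groups of 4 taken from the sample labels. Per the file headers, the authors deposited 2 measures for each gene, an expected count (an estimate of its fragments) and an FPKM. HISAT2 is named in the submitters' processing notes, without a version; no counter, build or annotation is given in the sources used here. By library, 25.3% to 27.2% of the counts were not whole numbers. The lowest FPKM listed was 0.01, and unlisted genes were taken as 0. Of 17436 entries, 26 named by a transcript were summed into their gene, leaving 17410 genes; 22 symbols turned into dates in 1 library were restored by gene number. Library totals were 21254937 to 40327264 counts, so genes with few counts are measured least precisely. Chi-square per degree of freedom between libraries of a group was 17.2 to 240.3, so no library repeats another.

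Expected counts were rounded and each comparison was fitted on its 8 libraries with edgeR 4.0.16 (R 4.3.3; filterByExpr, TMM scaling, quasi-likelihood F test, two-sided), with Benjamini-Hochberg adjustment over all genes tested and calls at an adjusted p below 0.05. Alternatives were DESeq2 1.42.0, DESeq2 size factors within edgeR, no filter, limma-voom (limma 3.58.1), limma on log2(FPKM + 1) and log2(FPKM + 0.1), 1 fit to all 16 livers, each liver left out in turn, and livers 19 and 21 left out, a pair picked with earlier results known. Values per liver are given for members called in any comparison, for the 3 lowest p-values of each and for 11 fixed genes, and some others; of the other pathway genes those called or the 4 with the lowest p are named, of the 61 lower between the control groups only those with the lowest p. The members and lists, taken in part from an earlier look at the same libraries, were chosen with earlier results of these data known. A RefSeq table of GRCm38.p6 served for names, overlaps and promoters.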

Additional observations from a re-analysis of the deposited data

Results flagged for a closer look

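Within each group of 4 livers the FPKM of every member was screened for a highest or lowest liver whose gap to the nearest other liver took a larger part of the group's range than Dixon's 95% critical value for 4 samples allows. Of 140 groups tested, 12 had such a liver, and chance gives about 1 in 20.

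In LKO_NASH 5 of these values belonged to liver 21, the liver that stood apart on the first principal component. Its Ccnd1 was 15.61 FPKM (7.53 to 8.72 in the other 3 livers), its Mcm6 3.95 (1.35 to 1.37), its Aurkb 0.59 (0.19 to 0.22) and its Bub1 0.08 (0.01 to 0.02), all high, while its E2f1 was low at 1.01 (2.18 to 2.38). Lig1 was highest in liver 24 of that group, at 1.29 (1.16 to 1.17). In WT_NASH liver 18 had the lowest Mcm5, 0.26 (0.56 to 0.62), and liver 20 was the only one with Bub1 above 0, at 0.01.

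In Ad_GFP_HFLMCD liver 10 was high for 3 G2/M genes: Plk1 at 3.42 (2.39 to 2.52), Racgap1 at 3.8 (2.67 to 2.84) and Stmn1 at 40.13 (31.47 to 32.57). In Ad_Chrebpa_HFLMCD liver 15 had the highest Cdk2, 5.89 (5.33 to 5.4). What set these livers apart was not tested.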

How the results depend on the processing

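No paired analysis was possible because the labels number the livers 9 to 24 and the groups share no replicate number. In the deletion experiment 0 genes were called; DESeq2 called 159, the fit to all 16 livers 152, and edgeR without livers 19 and 21, the livers nearest the other group, called 1521. Members called higher were 4, 4 and 7 in these fits, and 1 was called lower in the last. Leaving out 1 liver gave 0 to 420 genes and 0 to 5 members higher, all of them without liver 21, the LKO_NASH liver nearest WT_NASH. The G2/M median was 0.27 on log2(FPKM + 1). The sign turned without livers 19 and 21 for Mcm2 (-0.19) and Bub1b (-0.05), and on log2(FPKM + 1) and log2(FPKM + 0.1) for Mcm6 (0.00 and 0.11) and Rrm2 (0.07 and 0.16). With 1 liver left out it turned for Ccne2 (-0.09 to 0.32), Mcm2 (-0.20 to 0.34), Mcm6 (-0.85 to 0.22), Rrm1 (-0.04 to 0.08) and Rrm2 (-0.56 to 0.09), none of them called.

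In the overexpression experiment 1111 genes were called, 1946 with DESeq2 and 313 in the fit to all 16 livers. With 1 liver left out 393 (without liver 16) to 1707 (without liver 14, the liver nearest the other group) were called. Members called lower were 2 without a filter, 12 with DESeq2, 2 with limma-voom, 0 in the fit to all 16 livers, and 0 to 12 with 1 liver left out. Ccnb2 (-0.16 to 0.03) and Cenpa (-0.18 to 0.01) turned sign without liver 10. Between the control groups 1 member, Tk1, was called higher with DESeq2 size factors, without a filter and with DESeq2, and 0 to 1 with 1 liver left out. The G1/S and replication median was -1.79 on log2(FPKM + 0.1), the G2/M median -1.75 on log2(FPKM + 1), and on the FPKM scales 34 of 35 members were called lower and Tyms turned to -0.43 and -0.49. The causes were not tested. For G2/M genes in the NASH livers the depth limits every statement, since 10 of 18 had a WT_NASH liver with fewer than 10 counts.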
